A study of Homo sapiens with 2 samples.

Results

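HCC38 is a human breast cancer cell line of the triple-negative class, which lacks the estrogen and progesterone receptors and HER2 amplification, and it is usually grouped with the basal-like lines. Its cells were taken as the barcodes with suffix 4 in the deposited matrix, in which the multiplexing oligo CMO306 was the highest of the 12 oligos. Barcodes were kept with at least 1000 gene UMIs (unique molecules counted), at least 500 genes, at most 20% of UMIs in mitochondrial genes and CMO306 making up at least 80% of the oligo UMIs. This gave 2474 cells of 2670 barcodes with that suffix, and of 17605 barcodes in the series, 14866 of which passed the same filter with their own oligo.

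The series profiled 6 untreated breast cancer cell lines by droplet-based 3′ single-cell RNA sequencing. HCC38 was at passage 5 and was 1 culture. It was stained with a lipid-anchored oligo, pooled with MDA-MB-436 and Hs578T, and loaded at 15000 cells per pool. The other pool held BT-474, MDA-MB-453 and MDA-MB-231. All 6 are tumour-derived and none was treated or genetically altered, per the labels. The pairing of oligos with lines is not in the labels. The suffix 4 cells had the highest level of 6 of 6 HCC38 markers, and are called HCC38-like. Suffix 4 was assigned to HCC38 by these same markers, so their lead does not test the name. By marker lists for each line, suffix 5 was Hs578T-like (leading 10 of 10 markers), suffix 1 BT-474-like (10 of 10), suffix 2 MDA-MB-231-like (5 of the 9 that reached 10 CPM) and suffix 3 MDA-MB-453-like (7 of 9). Suffix 6 led 7 of 10 MDA-MB-436 markers and is called the suffix 6 group, MDA-MB-436 by elimination within its pool.

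Each line was 1 culture in 1 pool, so replicates are lacking. Line and culture cannot be told apart, no test across samples was possible, and all intervals given are 95% intervals of counting error only. HCC38-like cells held 91.9 M UMIs (68.9 to 81.7 M in the other groups), with a median of 34304 UMIs, 6396 genes and a mitochondrial share of 5.90%. CMO306 had a median of 8986 UMIs, or 94.5% of oligo UMIs. No cell barcode sequence was shared with another suffix of the same capture, and 10 were shared with the other capture. Doublet or mixed-line calls touched 79 cells, which were left out of the analyses among cells and kept in the comparison of lines.

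Basal-like breast cells carry programmes of the outer, basal layer of the mammary duct and of stratified epithelium: keratins that form the intermediate filaments, desmosomal cadherins, and secreted serine proteases of the kallikrein family with their inhibitors. Kallikreins cut adhesion proteins between epithelial cells. Interferon-stimulated genes encode antiviral proteins and are switched on through response elements in their promoters. All of these were read here as CPM, UMI counts scaled to the same total in each group, in the usual per-million unit, and ratios between groups are of (CPM + 1).

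The transcripts with the highest ratio to the other groups included those of KLK5, KLK10, KRT81, BARX1, SERPINB5 and HIST1H1C. Of 3435 genes at 50 CPM or more in HCC38-like cells, 56 (1.63%) were at least 4-fold above the next of the other 5 groups, and 52 of the 56 are protein coding. The 56 were chosen on these values, so their levels are a description. The last inside the rule was HIST1H3H, 4.01-fold above the next group, and the first outside were HIST1H2BG at 3.98-fold and DSG2 at 3.81-fold. For 28 of the 56, the next group was of the same capture.

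Kallikreins lie in a cluster on chromosome 19, and 4 of them were among the 25 genes with the highest ratio. KLK5 (chr19:50943303-50953093, GRCh38), which encodes a trypsin-like protease that activates other kallikreins, was at 692 CPM in HCC38-like cells, 8.09 in Hs578T-like cells and 10.04 in the suffix 6 group. It had 0 UMIs in the 3 groups of the other capture, which allows at most 0.0435 CPM. It was 62.8-fold above the next group. KLK10 (chr19:51012739-51020175) was at 130.5 CPM, against 1.05 and 1.44 in the 2 groups of the same capture and at most 0.78 elsewhere. KLK6 was at 69.9 CPM and KLK7, which cleaves corneodesmosomes in skin, at 58.3 CPM, both below 0.75 CPM in each other group. Of 15 listed kallikreins, these 4 were measured, meaning at 10 CPM or more in a group. KLK6, KLK7 and KLK10 reached that level only in HCC38-like cells and so had to differ, and nothing is read from the count. Of all 10920 measured genes 16.5% were at least 2-fold above the mean of the other 5 groups and 7.17% at least 2-fold below it. Without the 316 genes that were measured only through HCC38-like cells, these shares were 14.3% and 7.38% of 10604.

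The same genes were not at 0 in the other 2 lines of the capture. Over the 25 genes with the highest ratio, the level in Hs578T-like cells had a median of 0.894% of that in HCC38-like cells (0.524% to 7.03%), and that in the suffix 6 group a median of 1.10% (0.476% to 5.35%). In the other direction, 25 genes were chosen for each of these lines by their ratio to the next group, with HCC38-like cells left out of the choice. HCC38-like cells had the Hs578T-like genes at a median of 3.65% of their level (1.56% to 36.03%) and the suffix 6 genes at a median of 20.3% (0.97% to 227%). The part of free RNA in these low levels was not tested.

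Among keratins the pattern was uneven. KRT81, a hair-type keratin, was at 2736 CPM in HCC38-like cells, 166 CPM in MDA-MB-231-like cells and 1.97 to 29.02 CPM in the other 4 groups. KRT86 overlaps KRT81 in the annotation and is similar in sequence, so its 88.7 CPM may hold reads of its neighbour. KRT16, a keratin of stressed and hyperproliferative epithelium, was at 58.4 CPM against 4.11 CPM in the next group, and KRT15 was at 97.2 CPM against 41.2 CPM in BT-474-like cells. KRT5, the defining keratin of basal cells and a marker given for the line, was at 11.2 CPM, and at most 0.08 CPM elsewhere. Its partner KRT14 was at 4.16 CPM and KRT17 at 4.46 CPM, both far under Hs578T-like cells (148.6 and 100.9 CPM). TP63, the master regulator of basal cells, had a UMI in 1.71% of HCC38-like cells thinned to 10000 UMIs. Of the other basal-type markers, CDH3 (P-cadherin) was at 61.2 CPM against 5.12 CPM in the next group and FOXC1, a forkhead factor used to mark basal-like tumours, at 68.5 CPM against 27.3 CPM. EGFR was at 49.7 CPM, below 3 of the other 5 groups (85.2 to 115.5 CPM). Among luminal-type markers ESR1, PGR and FOXA1 were each below 0.75 CPM, ERBB2 was at 23.9 CPM against 807.8 CPM in BT-474-like cells, and GATA3 was at 62.5 CPM. KRT5 and CDH3 are among the markers by which the cells were called HCC38-like, so they do not bear on the label basal-like. Of the other basal-type genes FOXC1 was highest of the 6 groups, whereas KRT14, KRT17 and TP63 were low.

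KRT5 was detected in few cells. With every cell thinned to 10000 UMIs, it had a UMI in 150 of 2393 HCC38-like cells, 6.27% (5.33% to 7.32%), and in 13.1% without thinning. It was found in 0 of 1711 Hs578T-like cells, where 3 cells would be 0.175% and the exact upper limit for the share of cells with a UMI is 0.215%, and in 0.346% of them without thinning. In 2097 suffix 6 cells the share was 0.0477%. KLK5 had a UMI in 92.1% of HCC38-like cells against 8.71% and 8.11% in the other lines of the capture, KLK10 in 54.9%, SERPINB5 in 50.9%, CDH3 in 40.1% and KRT16 in 19.7%. The 6 markers were thus detected in nearly all cells to a small share of them at equal depth. This share falls with the level of a gene, so a low share, as for KRT5, need not mean that few cells express it. For KRT16 an even spread would give 47.1%, against 19.2% in the cells without doublet or mixed-line calls.

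**Figure D1:**
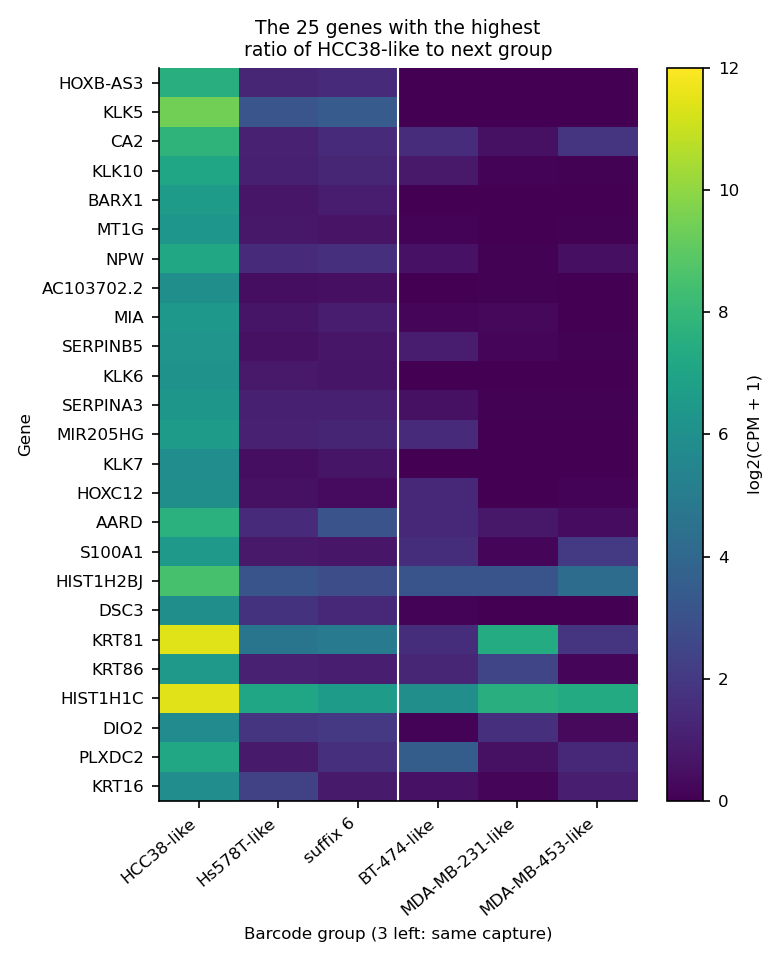
Level of the 25 genes with the highest ratio of HCC38-like cells to the next group, as log2(CPM + 1) in colour, with genes in rows and the 6 barcode groups in columns. The 3 columns left of the white line share a capture; the HCC38-like column stands out in all rows, and KRT81 (2736 CPM) and HIST1H1C (2841 CPM) are its brightest rows.

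HOXB-AS3 (chr17:48549630-48606414), an antisense RNA of the HOXB cluster, had the highest ratio of all: 188.7 CPM against 1.47 CPM in Hs578T-like cells, 1.68 CPM in the suffix 6 group and at most 0.03 CPM in the other capture. HOXB3, which it overlaps, was at 50.8 CPM against 5.81 CPM in the next group. The neighbouring noncoding AC103702.2 was at 62.6 CPM and below 0.4 CPM elsewhere. BARX1, a homeobox gene of stomach and tooth development, was at 94.0 CPM, HOXC12 at 62.2 CPM and EN1 at 82.9 CPM, with next groups at 0.97, 1.52 and 11.97 CPM. Whether counting used strand is not given in the sources used here, so reads of HOXB3 and HOXB-AS3 may not be fully apart.

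SERPINB5 (maspin, a serpin of mammary epithelium) was at 76.3 CPM and SERPINA3 at 79.9 CPM, and each was below 1.2 CPM in all other groups. CA2, a carbonic anhydrase, was at 219.6 CPM against 2.52 CPM in the next group. MT1G, a metallothionein that binds zinc and copper, was at 79.1 CPM against 0.71 CPM, MIA at 83.3 CPM and the neuropeptide NPW at 145.2 CPM. MIR205HG, the host transcript of a microRNA of epithelial cells, was at 98.8 CPM against 1.65 CPM in BT-474-like cells. DSC3, a desmosomal cadherin of stratified epithelium, was at 62.3 CPM against 2.37 CPM. S100A1, AARD, DIO2 and PLXDC2 complete the 25 with KRT86, and were 12.4-fold to 24.4-fold above the next group.

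HIST1H1C (linker histone H1.2, chr6:26055787-26056428) was at 2841 CPM in HCC38-like cells, 60.3 to 182.6 CPM in the other 5. HIST1H2BJ was at 369 CPM against 17.9 CPM in the next group, and 7 of the 56 genes were histone genes. Of 30 measured genes with a HIST symbol, 8 reached 10 CPM only in HCC38-like cells. Of the other 22, 16 were at least 2-fold above the mean of the other 5 and 2 at least 2-fold below, with a median log2 ratio of 2.30. HCC38-like cells were the highest of the 6 groups for 14 of the 22. The same held for 17.6% of all genes at 10 CPM in another group, and for 20% of all measured genes. HIST1H1E at 32.05 CPM and HIST2H2AC at 22.6 CPM were lower, against up to 161 and 92.8 CPM in other groups, and HIST1H4C was at 588.7 CPM against 449.9 to 1150 CPM. Most replication histone messages have no poly(A) tail, and 3′ kits prime on poly(A), so these counts cover the polyadenylated part of histone RNA.

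No gene at 50 CPM or more in all other 5 groups was 4-fold below the lowest of them in HCC38-like cells. Of 1676 such genes, 19 were at least 2-fold below, 32 with TMM factors (a scaling that adjusts for composition) and 58 against only the 2 lines of the same capture. The largest gap was that of JUN, a subunit of the AP-1 factor: 43.1 CPM against 166 to 352 CPM. FOXP1, a forkhead repressor, was at 14.7 CPM against 51.9 to 152.6 CPM. SLC25A6, which exchanges ADP and ATP across the inner mitochondrial membrane, was at 68.0 CPM against 225 to 388 CPM. GAS5 and SNHG29, host transcripts of small nucleolar RNAs, were at 83.7 and 152.7 CPM, 2.30-fold and 2.56-fold below the lowest other group. Of the 15 lowest genes, VPS28, MAF1, PHF20L1, C8orf33 and EEF1D lie on chromosome 8. The share of the 1676 genes on that chromosome was not counted, so nothing is read from their number. VPS28, an endosomal sorting subunit, was at 36.4 CPM against 131 to 444 CPM, and EEF1D, an elongation factor subunit, at 350.2 CPM against 779 to 1633 CPM. MRPL34, SRP14, IAH1, C3orf14 and TRMT10C were 2.13-fold to 2.49-fold below.

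Position on the chromosomes went with these values in blocks. In windows of 20 Mb with at least 20 measured genes, the median log2 ratio to the mean of the other 5 was -1.22 over 65 genes at 140 to 160 Mb of chromosome 8, with HCC38-like cells the lowest of the 6 groups for 43 of the 65 (9.78% over all measured genes). At 0 to 20 Mb of the X chromosome it was -0.85 over 50 genes, 25 of them lowest. The highest window was 0 to 20 Mb of chromosome 9, at 1.78 over 37 genes, 22 of them highest of the 6 (20% over all measured genes). In that window PSIP1, a chromatin-bound transcription coactivator, was at 341.7 CPM against 89.1 CPM in the next group, ZDHHC21 at 79.7 against 22.4 CPM and AK3 at 130.1 against 55.7 CPM. Next to it, 20 to 40 Mb of chromosome 9 was at -0.57. Against the 2 lines of the same capture alone, the chromosome 8 window was at -1.63 and the first window of chromosome 9 at 0.87. DNA copy number was not measured in these files.

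Tumour suppressors were read one by one. CDKN2A, which encodes p16 and ARF, was at 1.46 CPM in HCC38-like cells, 1.16% of its level in the suffix 6 group (125.9 CPM), and 0.54 to 23.2 CPM in the other 4. MTAP, the neighbour of CDKN2A, was at 6.96 CPM. RB1 was at 82.8 CPM, next to 81.1 CPM in MDA-MB-453-like cells and far above 4.48 CPM in the suffix 6 group. Of 19 measured tumour suppressors, 4 were at least 2-fold above and 2 at least 2-fold below the mean of the other 5. Over all measured genes these shares were 16.5% and 7.17%, so nothing is read from the counts.

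**Figure D2:**
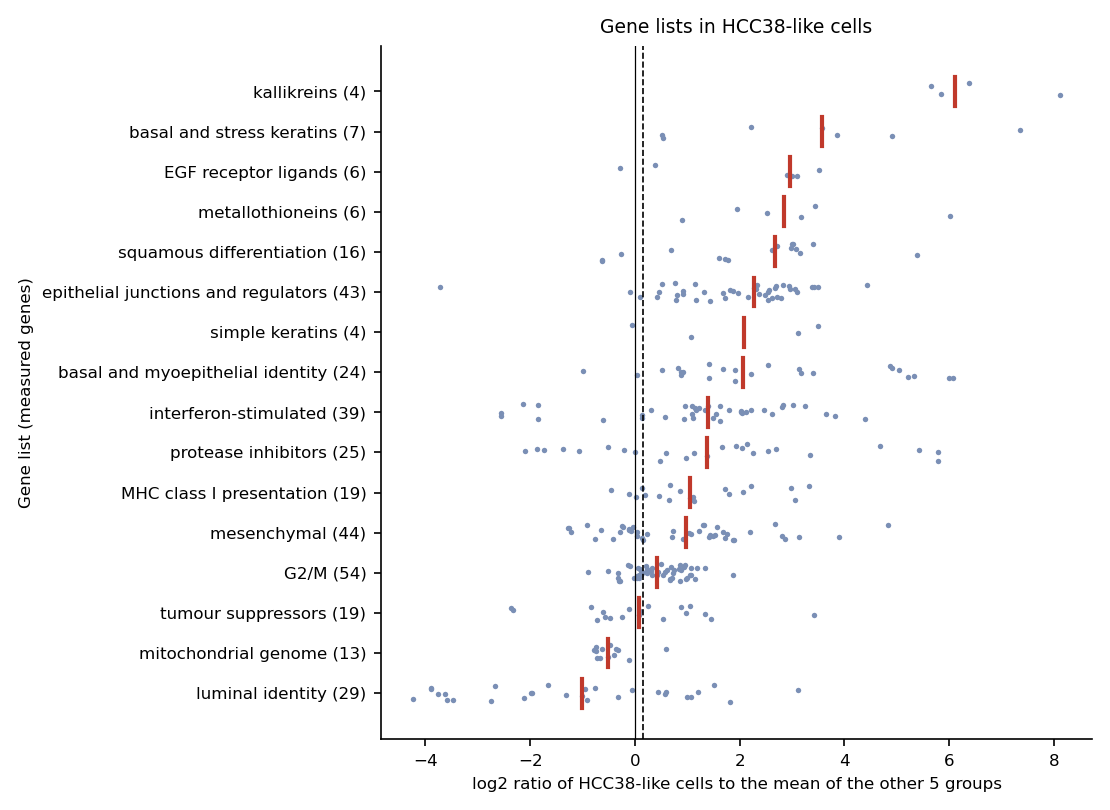
Log2 ratio of HCC38-like cells to the mean of the other 5 groups (x axis) for each measured gene of 16 lists (rows, number of genes in brackets), 1 point per gene with random vertical spread; red bars are list medians, the solid line is 0 and the dashed line the median of all measured genes (0.16). Luminal identity (-1.01) lies farthest left. Kallikreins (6.11) lie farthest right, but 3 of those 4 genes reached 10 CPM only in HCC38-like cells.

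Lists are described by their genes that reached 10 CPM in at least 1 other group, counting those at least 2-fold above or below the mean of the other 5. Of all 10604 such genes, 14.3% were above and 7.38% below. Basal and stress keratins had 3 of 5 above and none below (median log2 ratio 2.22), with KRT5 and KRT16 measured only through HCC38-like cells. Basal and myoepithelial identity had 10 of 17 above and none below (1.42), with 7 more measured only through HCC38-like cells. The summed level of this list was 2193 CPM in HCC38-like cells, below the 3237 CPM of Hs578T-like and the 3037 CPM of MDA-MB-231-like cells. Among its genes the BMP-induced ID4 was at 301.9 CPM against 42.9 CPM in BT-474-like cells, and DST, a cytoskeletal linker, had the lowest ratio at 69.7 CPM. Epithelial junctions and their regulators had 31 of 42 above and 1 below (2.22). Over all 43 measured, the median against the other groups was 2.28 in HCC38-like cells, 2.17 in BT-474-like cells and 2.23 in MDA-MB-453-like cells. DSC2 was at 177 CPM and EPCAM, an epithelial adhesion molecule, at 473.5 CPM, whereas AP1M2, an epithelial sorting adaptor, was at 3.17 CPM against 99.2 to 135.6 CPM in 4 of the other groups. Luminal identity had 5 of 29 above and 15 below (-1.01), with the trefoil factors TFF1 and TFF3 at 0 UMIs (at most 0.0327 CPM), but KRT19 at 1654 CPM. Against the 2 lines of the same capture the median of the same 29 genes was 0.05. It was 1.05 over the 15 of them that reached 10 CPM in the capture.

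The mesenchymal list was intermediate. Its median was 0.98, with 22 of 44 above and 3 below, yet HCC38-like cells were the highest group for 0 of the 44. TPM2, a tropomyosin, was at 539.7 CPM and SPARC, a matrix glycoprotein, at 97.9 CPM, both under Hs578T-like cells (2145 and 698 CPM). ZEB1, a repressor of epithelial genes, was at 4.21 CPM and TWIST1 at 4.56 CPM. These levels include the mixed-line cells and a VIM-high group of 76 cells described below. In the rest of the cells without doublet or mixed-line calls, ZEB1 was at 1.42 CPM and TWIST1 at 1.73 CPM. How much these cells, or free RNA of the capture, add to the list median was not tested. Against the 2 lines of the same capture alone the median of the same 44 genes was -1.76. Taken 1 line at a time, it was -3.43 against Hs578T-like cells and 0.26 against the suffix 6 group.

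Interferon-stimulated genes differed in direction. Of 37 at 10 CPM in another group, 25 were at least 2-fold above and 5 at least 2-fold below, with a median of 1.335. HCC38-like cells were highest for 15 of the 37, against 17.6% of all such genes. Over all 39 measured, the medians of HCC38-like and MDA-MB-231-like cells, each against its other 5 groups, were 1.39 and 1.26. The summed level of the list was 1678 CPM in HCC38-like and 2078 CPM in MDA-MB-231-like cells. MX1, a GTPase that blocks viruses, was at 61.7 CPM against 8.55 CPM in the next group, and OASL was at 62.7 CPM against 24.9 CPM in the suffix 6 group. The opposite held for IRF7 at 0.14 CPM and BST2, a surface tether of virions, at 6.097 CPM against 374 CPM in MDA-MB-453-like cells. In MHC class I presentation 9 of 18 were above and none below (0.96), led by the immunoproteasome subunit PSMB9 at 156.8 CPM and HLA-B at 575.5 CPM. EGF receptor ligands had 3 of 5 above (2.90), AREG being at 212 CPM against 469 CPM in MDA-MB-231-like cells and EPGN at 14.3 CPM against at most 0.70 CPM. Metallothioneins had 4 of 5 above (2.53), squamous differentiation 10 of 14 (2.19; S100A9 at 137 CPM against 17.8 CPM) and protease inhibitors 11 of 22, with 5 below (1.05; CST6 at 235 CPM, CST4 at 0.01 CPM). Over all measured EGF receptor ligands, the list median was 3.27 in MDA-MB-231-like and 2.95 in HCC38-like cells. For protease inhibitors it was 1.72 and 1.37. For MHC class I presentation, metallothioneins and squamous differentiation it was highest in HCC38-like cells.

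Other lists held single genes that stood out. Their counts are to be read beside the 14.3% above and 7.38% below over all genes at 10 CPM in another group. Of 26 YAP and TGF-beta targets 13 were above and 2 below (median 0.98), with ID1, a BMP target that blocks basic helix-loop-helix factors, at 2809 CPM against 557.7 CPM in BT-474-like cells. Over the same 26 genes, the median against the other groups was 1.29 in Hs578T-like and 0.95 in MDA-MB-231-like cells. Of 24 NRF2 targets and aldo-keto reductases 10 were above and 1 below (0.83): AKR1C1 was at 311.7 CPM, near the 344 CPM of Hs578T-like cells, whereas FTL, the ferritin light chain, was at 2043 CPM against up to 15500 CPM. Over all 25 measured genes of this list, the median was 0.91 in HCC38-like and 1.22 in Hs578T-like cells. Among 52 surface and adhesion genes 13 were above and 4 below (0.59), ITGB6, the subunit of an epithelial integrin that activates TGF-beta, being at 51.4 CPM against 5.34 CPM. Over all 53 measured, the median was 0.60 in HCC38-like and 0.61 in MDA-MB-231-like cells. The cell cycle lists differed little, with 8 of 54 G2/M genes above (0.43) and 3 of 46 G1/S genes above and 1 below (0.27). The 13 genes of the mitochondrial genome were lowest of the 6 groups for 6 (-0.52), and none was at least 2-fold below.

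Scaling touches the split of higher and lower genes. With TMM factors (1.16 for HCC38-like cells), the median of all measured genes moved from 0.16 to -0.10 and the share of 2-fold differences that were higher from 69.7% to 50.1%. Markers of other cell types were low: 16 immune markers summed to 8.63 CPM in HCC38-like cells (1.48 to 69.2 CPM in the other groups) with 5 at 0, and 14 fibroblast and endothelial markers summed to 68.1 CPM (5.15 to 1334 CPM) with 2 at 0.

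What varies among HCC38-like cells was read in 2322 cells without doublet or mixed-line calls, each thinned to 10000 UMIs. The measure is the excess squared CV, (variance - mean)/mean squared, which is 0 for counting noise alone. Of 6289 genes with a mean of at least 0.2 UMIs per cell, 850 (13.5%) had an excess of 0.5 or more, and the median was 0.17. The corresponding share was 8.65% in Hs578T-like cells and 9.86% in the suffix 6 group. Of the 56 genes that set the line apart, 44 were at 0.5 or more.

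The 25 most variable genes were led by IGFBP5, an IGF-binding protein, with an excess of 59.2: a mean of 0.575 UMIs, a UMI in 10.0% of cells where an even spread would give 43.7%, and 138 UMIs in the highest cell. The antiviral genes IFIT1, IFIT2, IFIT3, OASL and HERC5 and the chemokine CCL5 made up 6 of the 25. IFIT2 had a UMI in 6.93% of cells (26.4% under an even spread) and an excess of 40.2, and CCL5 in 7.97% with 51.7. The aldo-keto reductases AKR1C1, AKR1C2 and AKR1C3, which reduce steroids and aldehydes, made up 3 more: 10% of cells carried 89.8% of all AKR1C1 UMIs. These 3 are close paralogs whose reads can be split by the counting. KRT16 had an excess of 25.1, S100A9 of 12.1 with 138 UMIs in the highest cell, DIO2 of 12.95 and the matrix protease MMP7 of 15.8. CPA4, ACTA2, SCG2, CCN2, STC1, TIMP3, TAGLN, GADD45A, PLAAT4, BIRC3 and CXCL1 make up the rest, between 8.09 and 21.1. In other lines, IFIT2 had an excess of 56.2 in the suffix 6 group at a mean of 0.14 UMIs, and TAGLN had 0.90 in Hs578T-like cells at a mean of 16.25. By list, 4 of 4 kallikreins with a mean of at least 0.2 UMIs were at 0.5 or more, as were 17 of 21 mesenchymal genes, 14 of 18 of basal and myoepithelial identity and 7 of 31 of epithelial junctions. Each of these shares is above the 13.5% over all 6289 genes.

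**Figure D3:**
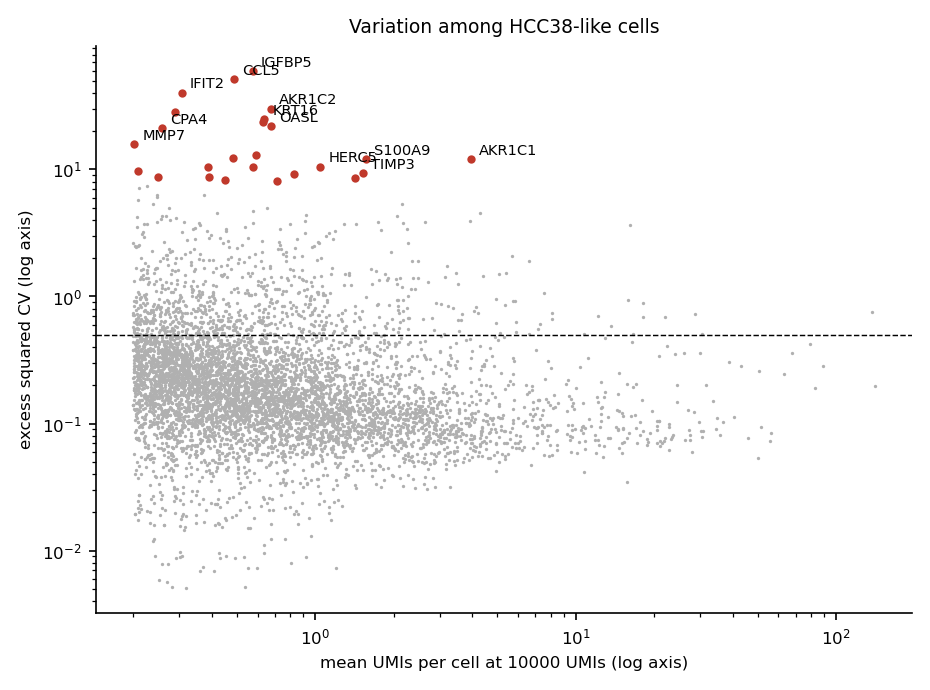
Excess squared CV (y axis, log) against mean UMIs per cell at 10000 UMIs (x axis, log) for genes with a mean of at least 0.2 among 2322 HCC38-like cells; genes at or below 0.005 are not drawn. Red points are the 25 highest, led by IGFBP5 at 59.2, and the dashed line is 0.5.

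These genes moved in modules. Over the 300 most variable genes, average linkage on correlations across cells (mean r of at least 0.15 to join) gave a largest module of 52 genes, with a mean r of 0.35, of which 25 are on the G2/M list and 8 are histone genes. Its most connected genes were TOP2A, CENPF, AURKA, UBE2C and PLK1, and its summed level ran from 8 UMIs at the 10th percentile of cells to 153 at the 90th. HIST1H2BJ was in this module (r with TOP2A 0.62), while HIST1H1A, HIST1H1B, HIST1H4C, HIST1H1D, HIST1H1E, HIST2H2AC and H1F0 made another of 7 genes (mean r 0.37). HIST1H1C, the most abundant histone transcript, had an r of 0.03 with HIST1H1A and of 0.35 with HIST1H2BJ. All correlations are across cells of 1 culture and 1 library, and are descriptions.

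The second module held 26 genes with a mean r of 0.30, of which 16 are on the interferon-stimulated list. OASL, IFIT3, IFIT2, IFIT1 and HERC5 were its most connected genes, and IFIT2 had an r of 0.73 with IFIT1, 0.78 with IFIT3 and 0.39 with CCL5. DDX58 and IFIH1, sensors of double-stranded RNA, and PMAIP1 were in it too. The median cell had 11 UMIs of the module, the 90th percentile 37 and the highest cell 439, and 10% of cells held 48.7% of its UMIs. Its level was nearly unrelated to the mitochondrial share (Spearman's rho -0.03) and to depth (-0.10). HLA-B, itself inducible by interferon, had an r of only 0.10 with IFIT2 but 0.62 with B2M, its partner chain.

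Since these genes move together, their promoters are shown around the motif of the interferon-stimulated response element, searched as GAAANNGAAA on both strands in the 250 bases before each RefSeq start (GRCh38.p14). Of the 26 genes, 19 had a promoter in the table and 12 of the 19 had a match, in 14 of 23 windows, against 3.02% of all 35116 windows of that length. Each line below is 60 bases, 5′ to 3′ on the gene's strand, with matches in capitals, and a match on the other strand reads TTTCNNTTTC. Matches may overlap.
IFIT3 (chr10:89327833-89327892, +): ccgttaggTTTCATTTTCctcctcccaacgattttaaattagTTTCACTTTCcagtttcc
IFIT1 (chr10:89392488-89392547, +): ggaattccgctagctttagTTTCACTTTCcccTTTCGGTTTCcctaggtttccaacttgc
HERC5 (chr4:88457020-88457079, +): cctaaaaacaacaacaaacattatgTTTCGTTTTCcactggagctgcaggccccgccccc
ISG15 (chr1:1013362-1013421, +): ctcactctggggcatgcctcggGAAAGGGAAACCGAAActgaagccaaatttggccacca
DDX60 (chr4:168318789-168318848, -): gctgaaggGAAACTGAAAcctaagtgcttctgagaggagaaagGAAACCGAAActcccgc
IFI44 (chr1:78649729-78649788, +): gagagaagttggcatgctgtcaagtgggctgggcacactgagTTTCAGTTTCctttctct
In IFIT1 the matches began 116 and 103 bases before the start, and in ISG15 they began 113 and 107 bases before it and overlapped. IFIT3 is shown at the first of its 2 listed starts, and HERC5 at the nearest of its 3 matches. IFIH1, ISG20, PARP14, SAMD9, GBP1 and WARS also had a match. DDX58, ZC3HAV1, PMAIP1, FGF2, IRF1, LMO4 and PLAUR had none in this window. OASL, IFIT2, PLAAT4, CCL5, USP18, SP6 and APOL6 were not matched to a listed promoter. A match is a string of letters, and no binding was measured.

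The third module, of 17 genes (mean r 0.20), had TIMP3, an inhibitor of metalloproteinases, AARD, the surface glycoprotein CD24, P3H2 and CRYAB as its most connected genes, and r between TIMP3 and AARD was 0.49. The next, of 13 genes (0.19), held the immediate early gene FOS, the EGF receptor ligands AREG and EREG, CXCL1 and SLC16A7, with an r of 0.48 between AREG and EREG. Another, of 9 genes (0.21), held MGP, CLDN3, ADIRF, KRT15 and COL9A3, along with KRT16. MGP, an inhibitor of calcification, reached 336 UMIs in a cell at a mean of 16.2. The TIMP3 and FOS modules ran against each other (rho -0.34) and the TIMP3 and MGP modules together (0.33). A smaller module of 7 genes (mean r 0.33) joined AKR1C1, AKR1C3 and AKR1C2 with SLC7A11 and GCLC, a cystine importer and the rate-limiting enzyme of glutathione synthesis: 10% of cells held 71.6% of its UMIs and 19.8% of cells had none. NRF2 is known to act on these genes. The core of its antioxidant response element, TGACNNNGC, had no match in 6 promoter windows of 5 of the 7 genes. Of all windows 10.9% hold it, so no match in 6 is a likely outcome, and nothing is read from it. SLC7A11 was not matched to a listed promoter, and sequence farther upstream was not searched. KLK10, KLK7 and KLK6 fell in a module of 5 genes with IGFBP6 and FOXQ1 (0.22), without KLK5, whose r with KLK10 was 0.41. CDH2, VIM, SCG2, MAP1B, COL6A3 and TGM2 made a module of 6 (0.21), with 105 UMIs in the highest cell at a median of 3.

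**Figure D4:**
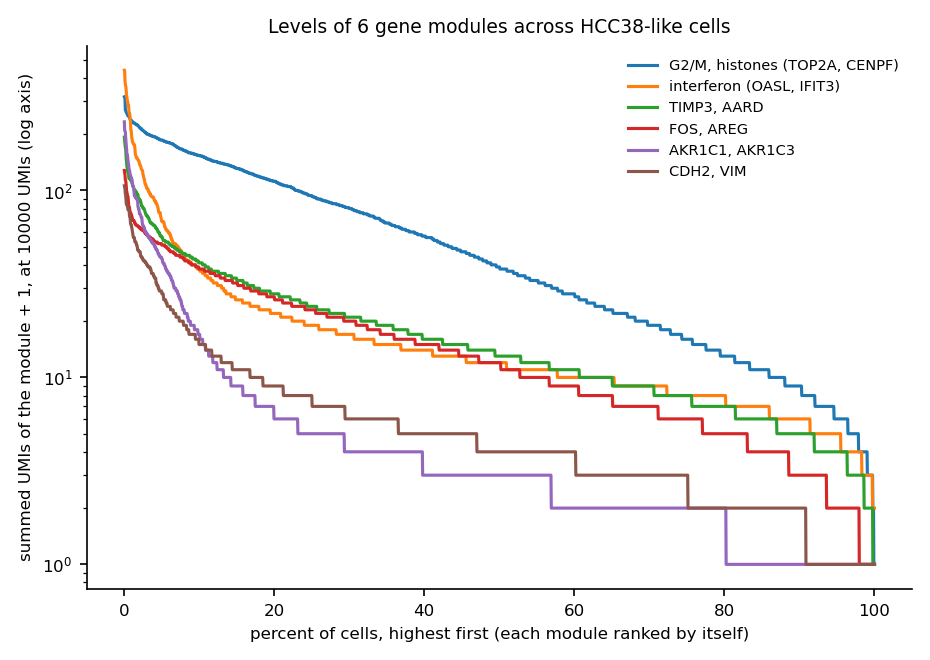
Summed UMIs plus 1 of 6 modules (y axis, log) in each of 2322 HCC38-like cells thinned to 10000 UMIs, with cells ranked from highest to lowest for each module by itself (x axis, percent of cells). The curve of the largest module, labelled by its G2/M and histone genes, falls evenly, while the interferon and AKR1C1 curves fall steeply within the first 10% of cells, which hold 48.7% and 71.6% of those modules' UMIs.

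Clustering of the 2395 cells on genes outside the lists gave 3 subclusters, of 1677, 642 and 76 cells. Subcluster 2 held 26.8% of cells (25.04% to 28.6%) and subcluster 3 3.17% (2.51% to 3.96%). Median UMIs were 32890, 36980 and 31640, median mitochondrial shares 5.55%, 6.84% and 4.71%, and median shares of CMO306 94.3%, 94.9% and 95.3%. Subclusters were formed on expression, so the differences below are descriptions.

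Subcluster 2 had lower TIMP3 (10.5 CPM against 197.5 CPM in subcluster 1), APOE (8.74 against 126 CPM), KRT86 (12.8 against 121.5 CPM), AKR1C1 (50.4 against 442 CPM), AKR1C2, the noncoding UCA1, ACTA2, CCL5, IGFBP7 and IGFBP3, each at least 6-fold lower. It had higher BHLHE41, a clock-related repressor (53.6 against 7.56 CPM), the TGF-beta receptor TGFBR1 (69.4 against 17.3 CPM), SERPINA3 (164.9 against 48.6 CPM), AREG (436 against 134.8 CPM), EREG (139.8 against 43.6 CPM), FOS (247 against 83.5 CPM), SGK1, SLC16A7, TRIB1 and CXCL1. Of 8774 genes at 10 CPM or more in either, 1.41% were 2-fold higher or more in subcluster 2 and 2.89% were 2-fold lower or more, with a median log2 ratio of -0.02. Of the 7966 at 10 CPM in both, 0.854% were higher by 2-fold or more and 1.48% lower by 2-fold or more, and lists are counted over these. Of 27 interferon-stimulated genes none was at least 2-fold higher and 7 were lower (median -0.74), and of 4 basal and stress keratins 2 were lower (-0.82). KRT5 was at 0.84 against 16.5 CPM. Of 5 EGF receptor ligands 3 were higher and none lower (1.105). HLA-B was at 236.5 against 730.7 CPM and B2M at 633 against 1484 CPM, while in MHC class I presentation 2 of 17 genes were at least 2-fold lower and none higher (-0.43).

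The difference between subclusters 1 and 2 was also laid out along chromosomes. Over all 8774 genes the median was -0.02, so higher and lower genes were near an even split. The windows named here were chosen after their values were seen. At 60 to 80 Mb of chromosome 9 the median log2 ratio of subcluster 2 to 1 was 0.93, and all 22 measured genes were higher. At 0 to 20 Mb of chromosome 2 it was -0.69, with all 33 genes lower. At 120 to 140 Mb of chromosome 11 it was -0.65, with 25 of 27 lower. The 2 windows of chromosome 15 with the most genes, 60 to 80 Mb and 40 to 60 Mb, were both at -0.40, with 95 of 102 and 83 of 92 genes lower. At 40 to 60 Mb of chromosome 22 it was 0.54, with 69 of 78 higher, and at 0 to 20 Mb of chromosome 1 0.46, with 94 of 118 higher. B2M lies on chromosome 15, in the window at 40 to 60 Mb, and had a log2 ratio of -1.23. A link between its level and that of the window was not tested. The 8q end and the start of chromosome 9, which set the line apart from the others, were alike in both: -1.29 and -1.21 against the other 5 groups at 140 to 160 Mb of chromosome 8, and 1.54 and 1.70 at 0 to 20 Mb of chromosome 9.

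Subcluster 3 was small and high in listed mesenchymal genes; it was described after its values were seen. Vimentin (VIM) was at 3743 CPM in its 76 cells against 354 CPM in the others, N-cadherin (CDH2) at 266 against 14.7 CPM, ZEB1 at 52.5 (44.3 to 61.7) against 1.42 CPM, and TWIST1 at 45.7 against 1.73 CPM. VEGFC, MIR137HG, COL5A2, NNMT, NRP2, VCAN and SCG2 were also among its 15 highest. EPCAM was at 37.1 against 500.2 CPM, CDH1 (E-cadherin) at 7.50 against 96.6 CPM, ESRP1, an epithelial splicing regulator, at 8.21 against 104.2 CPM, KLK5 at 68.5 against 727 CPM and KRT16 at 1.43 against 60.2 CPM. AREG, MGP, MAL2, S100A14 and MAP7 were among the 15 lowest. Of 33 mesenchymal genes at 10 CPM in either, 9 reached it only in subcluster 3. Of the other 24, 12 were at least 2-fold higher and none lower. Of 39 genes of epithelial junctions 34 were lower and none higher. Of 8924 genes at 10 CPM in either, 3.91% were 2-fold higher and 5.5% lower, and of the 8451 at 10 CPM in the rest, 1.85% and 5.81%.

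Genes with high ratios in HCC38-like cells went different ways in subcluster 3. All 6 given markers were at least 2-fold lower there than in the other 2 subclusters together (median log2 ratio -3.54). CA2 was at 18.6 against 231.7 CPM. Some others were retained in part or in full. BARX1 was at 121 CPM, HOXC12 at 54.97 CPM, HOXB-AS3 at 95.65 CPM and KRT81 at 1340 CPM, against 94.4, 63.55, 194.9 and 2830 CPM in the other 2 subclusters together. In Hs578T-like cells and the suffix 6 group BARX1, HOXC12 and HOXB-AS3 were below 1.7 CPM and KRT81 was at 24.7 and 29.02 CPM. The window at 140 to 160 Mb of chromosome 8 was at -1.28 against the other 5 lines and that at 0 to 20 Mb of chromosome 9 at 1.70. Markers of Hs578T, the mesenchymal line of the pool, were mixed. CDH2 and COL1A1 (190.2 against 37.6 CPM in the rest, and 833 CPM in Hs578T-like cells) were higher in subcluster 3. TWIST1 and COL5A1 (18.9 against 8.21 CPM) were also higher, and reached 10 CPM only in subcluster 3. PRRX1, a homeobox gene of mesenchyme, was at 8.92 against 2.84 CPM and 207.9 CPM in Hs578T-like cells. THY1, a surface glycoprotein at 811 CPM in Hs578T-like cells, had 6.43 against 7.77 CPM, and COL3A1 4.64 against 4.21 CPM (247 CPM in Hs578T-like cells). LUM was at 2.498 against 1.61 CPM, ITGA11 at 2.86 against 1.78 CPM and NEFL at 0.71 against 0.98 CPM. Cells called mixed with Hs578T-like transcripts had been removed before clustering, so low levels of that line's genes follow in part from the call. MAGEA4, at 677.7 CPM in the suffix 6 group, was at 6.43 and 4.97 CPM. The median oligo share of subcluster 3 was as high as in the rest, and VIM had a UMI in all of its 75 thinned cells against 67.3% of subcluster 1, while EPCAM had one in 16% against 98.3%. Genes at 0 to 20 Mb of the X chromosome were 0.66 higher by median log2 ratio over 29 genes in subcluster 3 than in the rest.

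**Figure D5:**
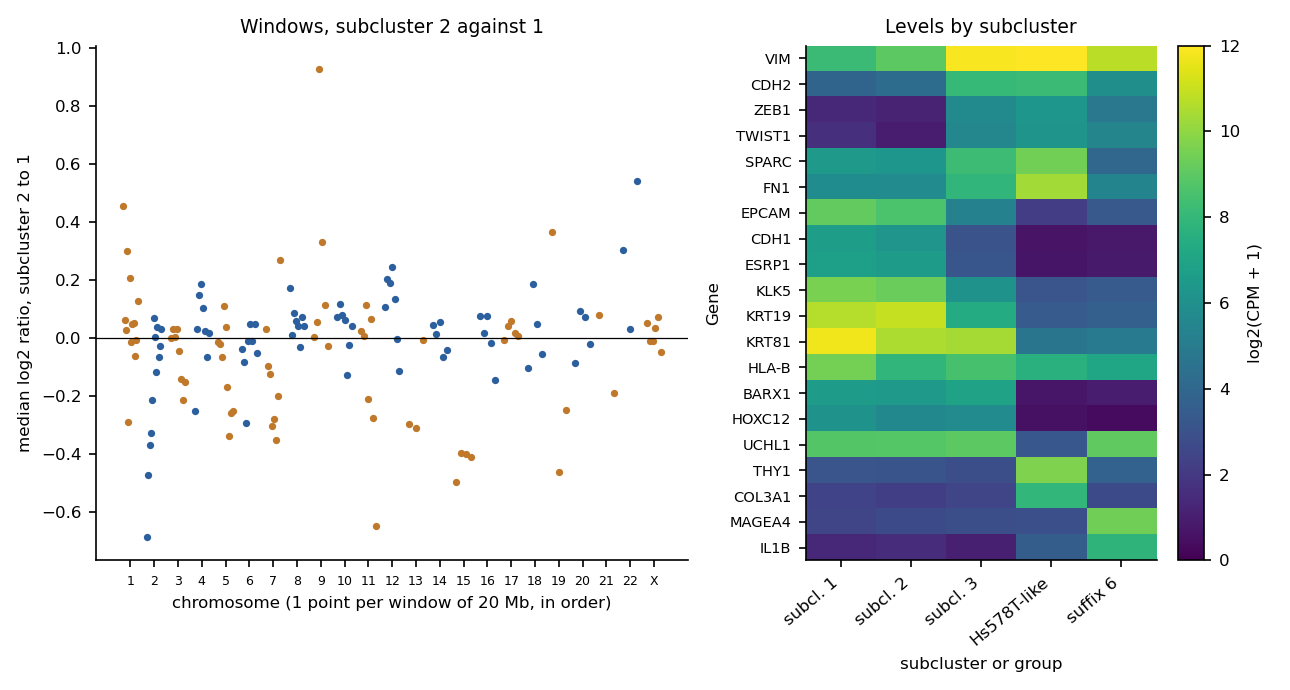
Left, median log2 ratio of subcluster 2 to subcluster 1 (y axis) in each window of 20 Mb with at least 20 genes, ordered along each chromosome (x axis); the highest point is on chromosome 9 (0.93) and the lowest on chromosome 2 (-0.69). Right, log2(CPM + 1) in colour of 20 genes (rows) in the 3 subclusters, Hs578T-like cells and the suffix 6 group (columns). Subcluster 3 had high VIM and ZEB1, with BARX1 near the other subclusters and KLK5 lower. Its low THY1 follows in part from the removal of mixed-line cells before clustering.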

How the data were processed

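Values are raw UMI counts, which the authors deposited in a single sparse matrix (36601 genes and 12 oligos by 17605 barcodes). Per the file headers the software was Cell Ranger 6.1.2. The submitters' processing notes name hg38 (GRCh38). How cells were called and how oligos were assigned is not stated in those sources. Gene positions are from GENCODE 29, matched by Ensembl ID.

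Counts were summed per barcode group, scaled to CPM and compared as log2(CPM + 1). Named genes were the 25 highest in ratio to the next group, the 15 lowest, up to 2 highest and 2 lowest of each list, the 25 most variable, the 5 most connected of the 5 largest modules, the given markers, tumour suppressors, and the 10 highest and 10 lowest between the 2 largest subclusters (50 CPM or more in either). Those of subcluster 3 (15 each way) and the chromosome windows were chosen after their values were seen. Doublets were called with Scrublet in scanpy 1.11.5 per capture (49 of 6377 cells in the capture of HCC38), and mixed cells where the 50 most specific genes of another line of the capture reached 25% of its median. Subclusters used 2000 variable genes outside the lists, 20 components, 15 neighbours and Leiden (leidenalg 0.10.2) at resolution 0.1, the first in steps from 0.05 at which 2 clusters held 5% of cells. Intervals are exact (Poisson, Clopper-Pearson), at 95%. The scripts were tested on simulated data. Some named genes are not reported here. Members and lists were chosen with earlier results of these data known. Alternatives were TMM scaling, other cell filters, oligo shares, pseudocounts, minima, thinning depths and clusterings.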

Additional observations from a re-analysis of the deposited data

How the results depend on the processing

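The count of genes at least 4-fold above the next group was 45 to 58 under 7 alternatives (TMM, cell filters, oligo share, doublets removed, per-cell means, pseudocount), and 45 to 56 of those were among the original 56. It was 140 against only the 2 groups of the same capture, 129 with a minimum of 10 CPM and 203 with none. The count of genes 4-fold below was 2 with TMM (JUN and VPS28), 1 with an oligo share of 95% and 1 with doublets removed (JUN in both), and 3 with a minimum of 10 CPM (CD2AP, PIH1D1 and MBOAT2, named after their values were seen). The median of all measured genes was -0.10 with TMM, 0.098 with a pseudocount of 5 and 0.099 within the capture. The kallikrein median, for which 3 of 4 genes were measured only through HCC38-like cells, was 4.21 with a pseudocount of 5 and 5.64 within the capture, and the interferon median 0.997 with a pseudocount of 5. Within the capture the medians of epithelial junctions, mesenchymal, luminal and BT-474 marker lists were 4.28, -1.76, 1.05 and 2.48, over genes at 10 CPM in the capture: 39, 44, 15 and 2 genes. Over all measured genes of the last 2 lists (29 and 10) they were 0.05 and 0.0027. Against all 5 other groups, the same genes had medians of -1.01 and -1.98. Both the change of groups compared and the change of genes thus moved these 2 medians. The cause of the other moves was not tested. For the 40 named high and low genes, 305 of 305 alternative values kept their direction. These genes were chosen as the extremes of the same counts, so this was largely fixed in advance. Nothing is read from it.

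Genes with an excess of 0.5 or more numbered 525 of 4079 at 5000 UMIs and 393 of 3417 at a mean of 0.5, where fewer genes are tested, and 859 to 875 otherwise; 14 to 24 of the 25 most variable were shared. In 5 alternatives 98.3% to 99.7% of cells of the 2 largest subclusters kept their side, and the VIM-high subcluster had 70 to 92 cells. With doublet and mixed calls kept there were 4 subclusters, and VIM was at 3788 CPM in that of 92 cells and at 3189 CPM in another. With k-means into 2 clusters the smaller held 41.2%, and 48.5% of cells fell on the matching side: G2/M genes had a median of 2.35, heat shock -0.11, YAP targets 0.17, mitochondrial genome -0.012, fibroblast markers 0.023, MDA-MB-453 markers 0.45, MHC class I -0.060, interferon -0.35 and 0 to 20 Mb of chromosome 2 0.023. Window and third-subcluster alternatives were added after seeing the data. No paired analysis was possible because there is 1 culture per line.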
